A study of Mus musculus with 8 samples.

Results

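Keratins are the proteins from which epithelial cells build their intermediate filaments, and 53 of the 27164 genes counted in this study encode one. They were taken as the protein-coding genes whose symbol is Krt followed directly by a number. Keratin-associated proteins and 2 pseudogenes, Krt8-ps and Krt74, were left out. The family held 28 type I (acidic) and 25 type II (basic) members. On the mouse genome 27 of them lie in a cluster on chromosome 11 and 26 in a cluster on chromosome 15, where Krt18 is the single type I gene.

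A keratin filament is assembled from equal parts of type I and type II chains, which pair with each other, and the pair a cell makes is a classical marker of its kind. Basal cells of stratified and glandular epithelia make Krt5 with Krt14, and the luminal cells of the mammary gland make the type II keratins Krt8 and Krt7 and the type I keratins Krt18 and Krt19. Keratinocytes that leave the basal layer of the epidermis switch to Krt1 with Krt10, and hair and nails are built from keratins of their own.

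RNA was sequenced from basal cells, the outer and contractile layer of the mammary ducts, sorted by flow cytometry from untreated 10-week-old C57BL/6 females. Every population came from mice with the Lgr5-GFP-IRES-CreERT2 allele, in which the Lgr5 locus drives a green fluorescent protein and an inducible Cre, so no population without the allele serves as a control. Lgr5, a receptor for R-spondins, and Tspan8 (T8), a tetraspanin of the cell surface, divided the cells into 4 populations, Lgr5+T8hi and Lgr5-T8hi with the tetraspanin and Lgr5+T8- and Lgr5-T8- without it, each with 1 library in batch 1 and 1 in batch 2. Since nothing in the labels ties the 2 libraries of a population to different animals, the spread on which each p-value rests may be technical.

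Libraries held 24571300 to 38384875 counts, and a floor of 3 counts corresponded to between 0.0799 and 0.120 CPM (counts relative to the TMM-scaled library total), which covers counting error only. In pairs of CPM values the batch 1 library is given first. Tspan8, checked first as a sort gene, stood at 289 and 261 CPM in Lgr5+T8hi and 167 and 150 in Lgr5-T8hi, against 10.6 and 6.82 in Lgr5+T8- and 4.36 and 3.16 in Lgr5-T8- cells. Lgr5 stood at 174 and 193 CPM in Lgr5+T8hi and 185 and 212 in Lgr5+T8-, against 119 and 129 in Lgr5-T8hi and 58.3 and 50.5 in Lgr5-T8- cells. Both followed the labels, and Lgr5-T8hi and Lgr5-T8- cells still held Lgr5 transcripts. Acta2, the smooth muscle actin of myoepithelial cells, ran from 3329 to 6758 CPM over the 8 libraries.

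Keratins took 1.03 to 1.38% of all counts. The lowest shares were 1.03 and 1.03%, in the Lgr5-T8- libraries, against 1.38 and 1.32% in Lgr5+T8-, 1.33 and 1.19% in Lgr5+T8hi and 1.14 and 1.14% in Lgr5-T8hi cells. Counts were found for 51 members, while Krt26 and Krt72, keratins of the inner root sheath of the hair, were at 0 in all libraries. A mean of at least 100 CPM was reached by 7 members, 7 lay between 10 and 100 CPM, 10 between 1 and 10 CPM and 29 below 1 CPM. Of these 29, 11 passed the filter on low counts, which 35 members passed in all and 18 did not. Krt14, Krt17 and Krt5 together held 84.2% of the keratin CPM, and the 7 members above 100 CPM held 97.0%.

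**Figure D1:**
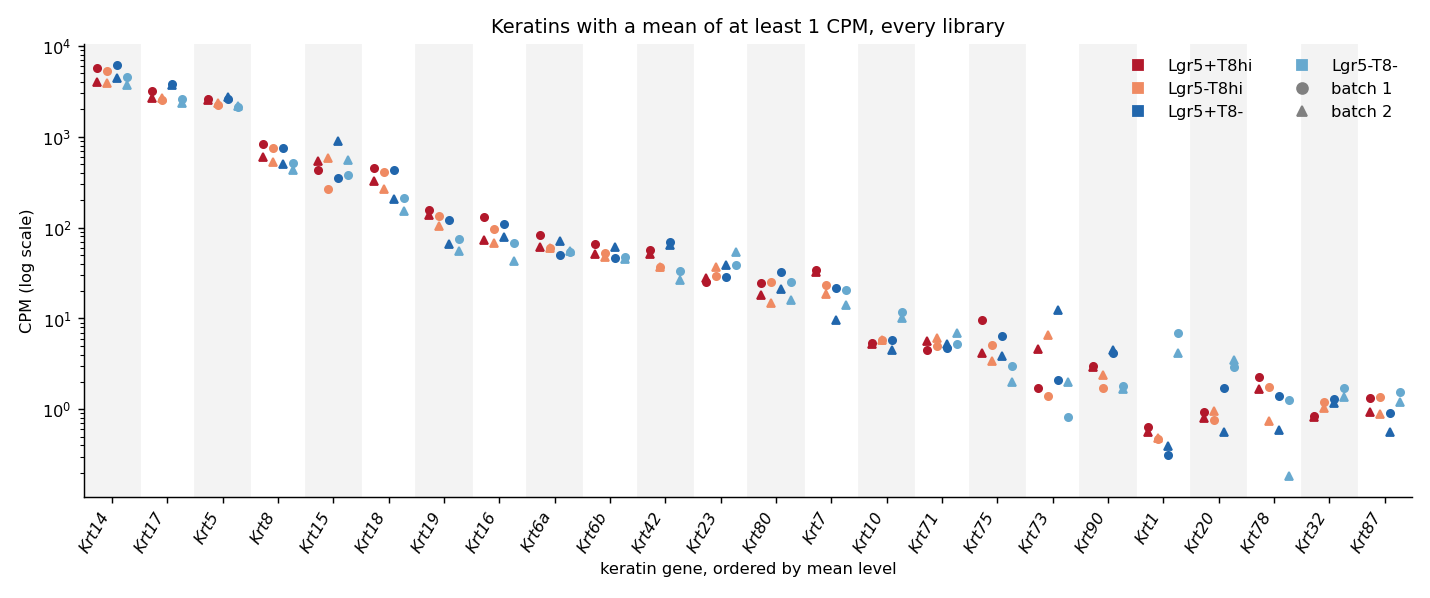
Level in CPM (log axis) of the 24 keratins with a mean of at least 1 CPM, in order of their mean, in every library; colours give the 4 populations, circles batch 1 and triangles batch 2. Krt14, Krt17 and Krt5 stand apart at the left, and only Krt1, among the last members on the right, spreads over more than a factor of 10 between populations in both batches.

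Krt14, the type I partner in the basal pair, was the most abundant keratin, with a mean of 4716 CPM that ranked 5 among all genes (Entrez 16664, chromosome 11, 100203162 to 100207510, GRCm38.p6). Its levels were 5731 and 3964 CPM in Lgr5+T8hi cells, 5267 and 3875 in Lgr5-T8hi, 6235 and 4400 in Lgr5+T8- and 4547 and 3707 in Lgr5-T8- cells. Batch 1 was higher in every population, and the difference of batch 2 from batch 1 was -0.44 ± 0.07 (log2, SE, edgeR adjusted p = 9.22e-04). Krt17, a keratin of basal and wounded epithelia, ranked 15 with 3169 and 2639 CPM in Lgr5+T8hi cells, 2568 and 2670 in Lgr5-T8hi, 3829 and 3691 in Lgr5+T8- and 2621 and 2376 in Lgr5-T8- cells. Both Lgr5+T8- libraries lay above all others. Krt5, the type II partner of Krt14, ranked 25 with 2613 and 2538 CPM in Lgr5+T8hi cells, 2227 and 2370 in Lgr5-T8hi, 2616 and 2752 in Lgr5+T8- and 2105 and 2202 in Lgr5-T8- cells. Its 2 Lgr5-T8- libraries were the lowest and its 2 Lgr5+T8- libraries the highest.

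Per kilobase of transcript, Krt14 exceeded Krt5 by a ratio of RPKM (CPM per kilobase) of 2.06 to 3.14. The ratio was 2.85 to 3.14 in batch 1 and 2.06 to 2.22 in batch 2, so the batches did not overlap while the populations did. Summed over the family, type I exceeded type II keratins per length by 3.09 to 4.14 in all 8 libraries. Krt15, a type I keratin of basal cells and of the hair follicle bulge, went the other way between batches, with 433 and 540 CPM in Lgr5+T8hi cells, 267 and 583 in Lgr5-T8hi, 356 and 897 in Lgr5+T8- and 378 and 556 in Lgr5-T8- cells. It was higher in batch 2 by 0.83 ± 0.18 (log2, SE, edgeR adjusted p = 0.0134). Of the 35 members tested, 4 were higher and 11 lower in batch 2, against 2649 and 2787 of the 16526 genes tested. Batch was a term in the fit because the labels state it and it was balanced over the populations.

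Keratins of simple epithelia, the luminal type, were present in every basal population at lower levels. Krt8 stood at 835 and 603 CPM in Lgr5+T8hi and 746 and 523 in Lgr5-T8hi, against 761 and 504 in Lgr5+T8- and 511 and 427 in Lgr5-T8- cells. Krt18, its type I partner, stood at 458 and 329 CPM in Lgr5+T8hi and 414 and 263 in Lgr5-T8hi, against 427 and 206 in Lgr5+T8- and 210 and 154 in Lgr5-T8- cells. For both genes the Lgr5-T8- library was the lowest of its batch. Krt19, a small type I keratin of luminal cells, stood at 156 and 137 CPM in Lgr5+T8hi and 135 and 105 in Lgr5-T8hi, against 120 and 66.8 in Lgr5+T8- and 74.0 and 55.6 in Lgr5-T8- cells. Krt7, a type II keratin of ducts and glands, stood at 34.3 and 32.3 CPM in Lgr5+T8hi and 23.5 and 18.7 in Lgr5-T8hi, against 21.4 and 9.73 in Lgr5+T8- and 20.5 and 14.2 in Lgr5-T8- cells. Both Lgr5+T8hi libraries lay above all others for Krt19 and for Krt7. Together these 4 genes made 8.50 to 11% of the keratin CPM in T8hi and 6.09 to 9.02% in T8- libraries. Within each batch both T8hi libraries lay above both T8- libraries.

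**Figure D2:**
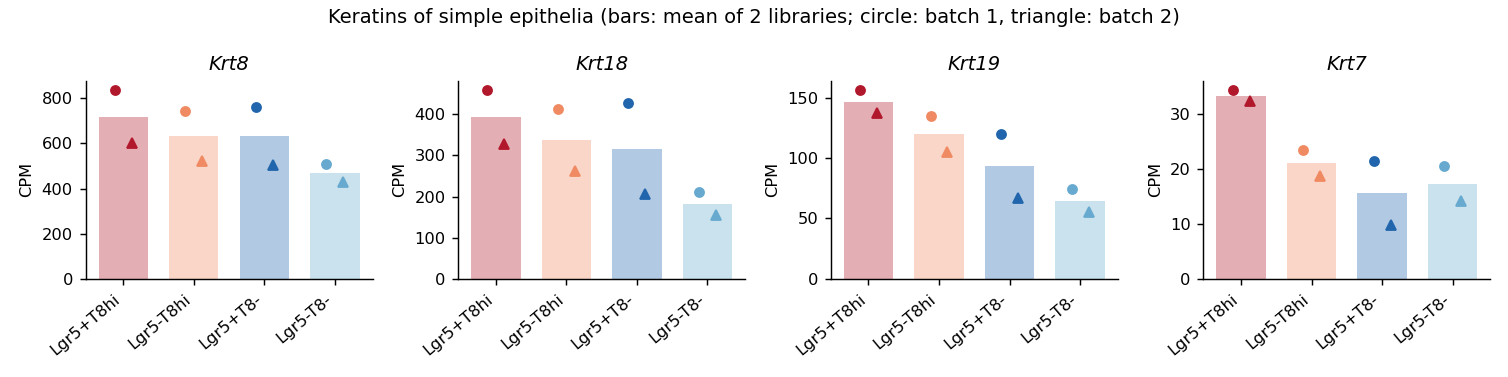
Level in CPM (linear axis from 0) of Krt8, Krt18, Krt19 and Krt7 in the 4 populations; bars are means of 2 libraries, circles batch 1 and triangles batch 2. Krt19 stood highest in Lgr5+T8hi (156 and 137 CPM) and lowest in Lgr5-T8- cells (74.0 and 55.6 CPM), and batch 1 was above batch 2 in every population for all 4 genes.

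Setting T8hi against T8- cells, with equal weight to both Lgr5 classes, asked which keratins go with the tetraspanin. Of the 35 members tested, 7 were higher (all genes, 9.13%) and 5 lower (all genes, 5.52%) in T8hi cells, or 34.3% in either direction against 14.6% of all genes, and the members' median log2 fold change was 0.02, against -0.02 over all genes. Of the 6 members of the simple epithelial class, 4 rose and 2 fell, and those that fell, Krt23 and Krt20, are described below. Krt19 rose by 0.79 ± 0.10 (log2, SE, adjusted p = 3.25e-04), Krt7 by 0.73 ± 0.15 (adjusted p = 0.0175), Krt18 by 0.62 ± 0.10 (adjusted p = 0.00147) and Krt8 by 0.31 ± 0.07 (adjusted p = 0.0148). Unless another fit is named, an adjusted p is from edgeR's quasi-likelihood test with batch as a block, corrected over 16526 genes by Benjamini and Hochberg, and every call of a keratin in this and the later comparisons had the same sign in both batches.

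Markers of luminal cells that are not keratins moved with these genes. Their summed level was 1850 and 1280 CPM in Lgr5+T8hi and 1690 and 1170 in Lgr5-T8hi, against 1470 and 921 in Lgr5+T8- and 1140 and 788 in Lgr5-T8- cells, with 14 of 19 higher and 0 lower in T8hi cells and none at 0. Epcam and Cd24a made up most of each sum, and neither passed the T8 test (adjusted p = 0.141 and 0.0908). Basal markers that are not keratins summed to 18700 and 17900 CPM in Lgr5+T8hi and 21400 and 20200 in Lgr5-T8hi, against 23900 and 21900 in Lgr5+T8- and 29100 and 28800 in Lgr5-T8- cells, with 0 of 18 higher and 11 lower. Fibroblast markers rose in 9 of 12 cases (sums of 1210 to 1720 CPM in T8hi and 648 to 1300 CPM in T8- libraries), endothelial in 6 of 12 (229 to 774 CPM and 167 to 310 CPM) and immune in 6 of 12 (27.6 to 60 CPM and 18.6 to 29 CPM). The part of other cells in the keratin differences was not tested, and in sorted bulk samples more cells of a type and more RNA per cell cannot be told apart.

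The other 3 keratins higher in T8hi cells belong to stratified epithelia. Krt75, the companion layer keratin of the hair follicle, stood at 9.60 and 4.12 CPM in Lgr5+T8hi and 5.05 and 3.36 in Lgr5-T8hi, against 6.39 and 3.87 in Lgr5+T8- and 2.97 and 1.98 in Lgr5-T8- cells, and rose by 0.58 ± 0.15 (adjusted p = 0.0189). Krt16, a stress keratin of hyperproliferative epidermis, stood at 131 and 72.3 CPM in Lgr5+T8hi and 96.8 and 68.2 in Lgr5-T8hi, against 109 and 78.7 in Lgr5+T8- and 68.0 and 42.7 in Lgr5-T8- cells, and rose by 0.33 ± 0.07 (adjusted p = 0.00937). Krt4, a mucosal keratin, stood below 1.30 CPM throughout. It had 1.21 and 0.416 CPM in Lgr5+T8hi and 1.29 and 0.293 in Lgr5-T8hi, against 0.409 and 0.120 in Lgr5+T8- and 0.909 and 0.184 in Lgr5-T8- cells, and rose by 1.08 ± 0.30 (adjusted p = 0.0315). For all 3 genes the T8hi and T8- ranges overlapped, and batch 1 was above batch 2 in every population.

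Of the 5 keratins lower in T8hi cells, Krt23 was the most abundant. This type I keratin of glandular epithelia stood at 25.4 and 27.8 CPM in Lgr5+T8hi and 29.0 and 37.1 in Lgr5-T8hi, against 28.4 and 38.7 in Lgr5+T8- and 38.7 and 54.5 in Lgr5-T8- cells, and fell by 0.40 on the log2 scale (SE 0.07, adjusted p = 0.00315). Krt20, the keratin of intestinal and urothelial surface cells, stood at 0.923 and 0.794 CPM in Lgr5+T8hi and 0.769 and 0.959 in Lgr5-T8hi, against 1.70 and 0.558 in Lgr5+T8- and 2.91 and 3.45 in Lgr5-T8- cells, and fell by 1.14 on the log2 scale (SE 0.29, adjusted p = 0.0234). Its 2 Lgr5-T8- libraries lay above the other 6. Krt28, of the inner root sheath, stood at 0.115 and 0.227 CPM in Lgr5+T8hi and 0 and 0.666 in Lgr5-T8hi, against 1.17 and 1.28 in Lgr5+T8- and 1.42 and 1.51 in Lgr5-T8- cells. All 4 T8hi libraries were below all 4 T8- libraries, and the log2 fold change was -2.57 ± 0.60 (adjusted p = 0.0274), or -5.62 without Lgr5-T8hi batch 2. The last members of this group, Krt1 and Krt10, are described with the interaction, since their levels in Lgr5-T8- cells set them apart.

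The calls for Krt18, Krt19, Krt1 and Krt23 held in each of the 8 fits that left out 1 library. Krt7 lost its call without either Lgr5-T8- library (adjusted p = 0.175 and 0.136), and Krt16 without Lgr5+T8hi batch 1 (0.0561) or Lgr5-T8hi batch 2 (0.0720). Krt8 lost it without any of the 4 T8hi libraries or Lgr5+T8- batch 2 (adjusted p = 0.0539 to 0.0826), and Krt75 without Lgr5+T8hi batch 1, Lgr5-T8hi batch 2, Lgr5+T8- batch 1 or Lgr5-T8- batch 1 (adjusted p = 0.0591 to 0.158). Krt4 passed only without Lgr5-T8- batch 2 (adjusted p up to 0.243 in the other 7 fits) and not with DESeq2 (adjusted p = 0.156). Krt20 lost its call without Lgr5+T8hi batch 1 or 2, Lgr5-T8hi batch 1, Lgr5+T8- batch 1 or Lgr5-T8- batch 2 (adjusted p = 0.0540 to 0.232), and its log2 fold change was -0.56 without Lgr5+T8- batch 1. Krt10 lost its call without either Lgr5+T8hi library or batch 1 of Lgr5-T8hi, Lgr5+T8- or Lgr5-T8- (adjusted p = 0.0559 to 0.198), and with DESeq2 (adjusted p = 0.05). Krt28 lost it without either Lgr5+T8hi library, Lgr5+T8- batch 1 or Lgr5-T8- batch 1 (adjusted p = 0.0597 to 0.139), with no filter (0.0595) and with DESeq2 (0.0536). Without the batch block, Krt1 alone of the 12 passed (adjusted p = 0.0283), and the others had adjusted p-values of 0.0770 for Krt19 to 0.649 for Krt16.

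**Figure D3:**
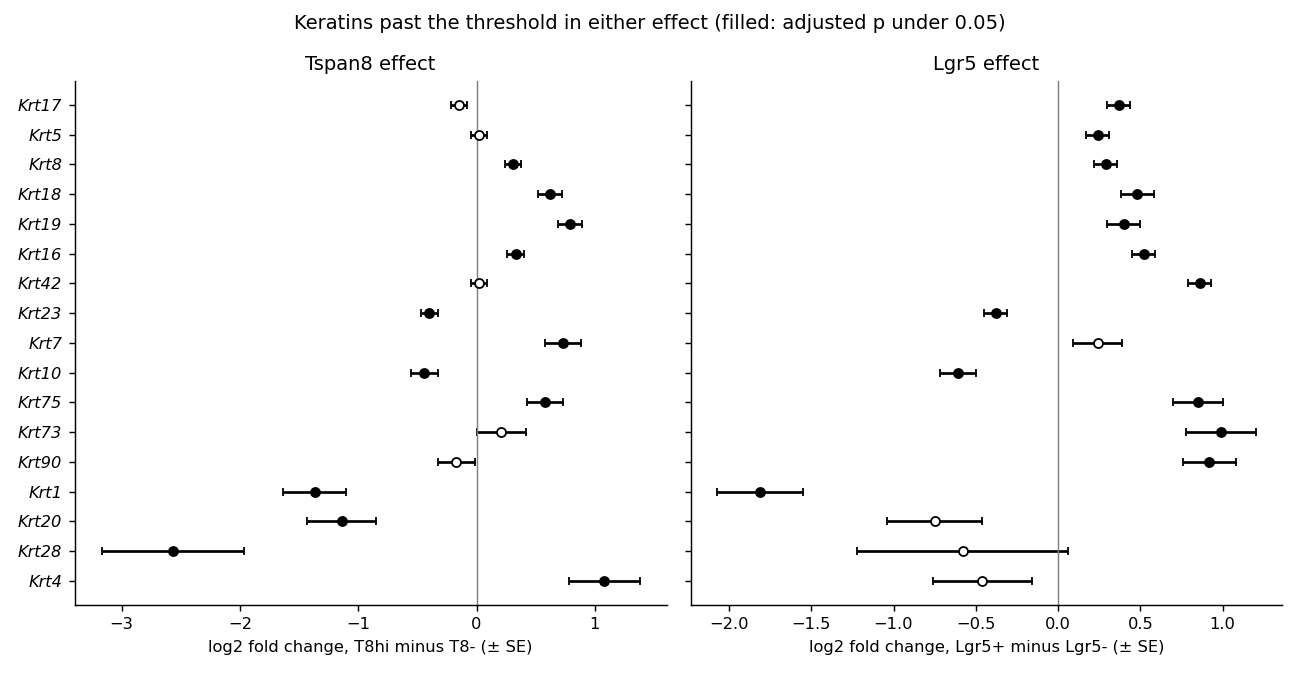
Log2 fold change with its standard error for keratins past the threshold in the Tspan8 effect (left, T8hi minus T8-) or the Lgr5 effect (right, Lgr5+ minus Lgr5-), from the fit over 8 libraries; filled points passed an adjusted p of 0.05 and open points did not. Krt77 is left out because Lgr5+T8- cells had 0 counts. Krt42 and Krt17 are filled on the right and open on the left, while Krt7 is filled on the left and open on the right.

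The comparison of Lgr5+ with Lgr5- cells, averaged over T8, called more keratins. Here 10 of 35 members were higher (all genes, 4.23%) and 4 lower (all genes, 4.86%), or 14 in either direction, where all genes gave 9.09%, with a median log2 fold change of 0.23 in the members, against 0.01 over all genes. Of the 9 members of the basal and stratified class, 5 rose and 0 fell. Krt42, a type I gene next to Krt17 whose human counterpart is a pseudogene, had the lowest adjusted p. It stood at 57.4 and 51.3 CPM in Lgr5+T8hi and 69.4 and 63.7 in Lgr5+T8-, against 37.0 and 36.9 in Lgr5-T8hi and 32.9 and 26.2 in Lgr5-T8- cells. All 4 Lgr5+ libraries lay above all 4 Lgr5- libraries, and the rise was 0.86 ± 0.07 (log2, SE, adjusted p = 1.51e-05).

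Its neighbours moved the same way. Krt17, 1852 bases away on chromosome 11, rose by 0.37 ± 0.07 (adjusted p = 0.00872), and Krt16, on the far side of Krt17, by 0.52 ± 0.07 (adjusted p = 8.54e-04). Krt42 made 1.73 to 1.94% of the Krt17 level in Lgr5+ libraries and 1.10 to 1.44% in Lgr5- libraries, so the 2 genes did not change in proportion. On chromosome 15, Krt75 and Krt90 lie 392 bases apart, and Krt75 rose by 0.85 ± 0.15 (adjusted p = 0.00310). Krt90, a type II keratin, stood at 2.97 and 2.91 CPM in Lgr5+T8hi and 4.16 and 4.50 in Lgr5+T8-, against 1.70 and 2.37 in Lgr5-T8hi and 1.79 and 1.69 in Lgr5-T8- cells, with no overlap between the Lgr5+ and Lgr5- libraries, and rose by 0.92 ± 0.16 (adjusted p = 0.00326). Krt5 rose by 0.24 ± 0.07 (adjusted p = 0.0466), and Krt14 differed by 0.21 ± 0.07 (adjusted p = 0.0945), which did not pass.

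Because reads were assigned to single genes, near-identical coding sequences limit what can be said of some of these members. Short windows of 90 bases from the coding sequences of a pair that overlaps much and of the pair Krt17 and Krt42 are shown to compare them. They are read on the coding strand from GENCODE vM21 transcripts of GRCm38, starting at base 787 of the coding sequence of Krt6a and Krt6b, base 602 of Krt17 and base 632 of Krt42, and capitals mark the bases at which the 2 of a pair differ.
Krt6a: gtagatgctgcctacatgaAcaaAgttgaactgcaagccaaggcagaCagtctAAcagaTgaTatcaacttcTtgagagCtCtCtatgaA
Krt6b: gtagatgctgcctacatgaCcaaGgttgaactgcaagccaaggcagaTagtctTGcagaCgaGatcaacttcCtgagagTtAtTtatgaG
Krt17: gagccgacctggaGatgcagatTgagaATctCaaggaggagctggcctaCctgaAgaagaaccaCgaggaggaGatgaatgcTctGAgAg
Krt42: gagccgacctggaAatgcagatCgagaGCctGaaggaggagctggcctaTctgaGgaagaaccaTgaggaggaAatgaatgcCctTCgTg
Krt6a and Krt6b, wound-induced keratins of chromosome 15, were identical at 97.8% of aligned coding bases, and 60.4 and 60.3% of their 50-base stretches occurred in the other gene. Krt17 and Krt42 were identical at 79.9%, and 0.306% of the 50-base stretches of Krt42 occurred in Krt17. Krt14 and Krt16 were identical at 86.4%, and 13.8% of the stretches of Krt16 occurred in Krt14. Krt16 stood at 1.15 to 2.28% of the Krt14 level, so its level is uncertain where reads could be split between them. In the windows shown, Krt6a and Krt6b differ at 12 bases and Krt17 and Krt42 at 13, whereas over the aligned coding sequence 1622 of 1659 bases of Krt6a and Krt6b were identical.

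Krt6a stood at 82.7 and 61.2 CPM in Lgr5+T8hi, 49.8 and 71.2 in Lgr5+T8-, 59.6 and 60.3 in Lgr5-T8hi and 53.3 and 55.6 in Lgr5-T8- cells. Krt6b stood at 65.3 and 51.2 CPM in Lgr5+T8hi, 46.8 and 61.7 in Lgr5+T8-, 51.9 and 48.0 in Lgr5-T8hi and 46.9 and 44.8 in Lgr5-T8- cells. The ratio of the 2 genes was 1.06 to 1.27 in all libraries, and neither passed the Lgr5 or the T8 test (adjusted p = 0.238 to 0.555).

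Of the 6 simple epithelial keratins, 3 rose and 1, Krt23, fell in Lgr5+ cells. Krt18, Krt19 and Krt8 rose by 0.48 ± 0.10 (adjusted p = 0.0104), 0.40 ± 0.10 (adjusted p = 0.0259) and 0.29 ± 0.07 (adjusted p = 0.0264). Krt7 differed by 0.24 ± 0.15 (adjusted p = 0.410). Of the 19 luminal markers that are not keratins, 3 rose and 3 fell in Lgr5+ cells, with a median log2 fold change of 0.23, while 1 of 18 basal markers rose and 6 fell, and 5 of 12 fibroblast markers rose and 2 fell. The part of other cells was again not tested. Krt73, an inner root sheath keratin, rose by 0.99 ± 0.21 (adjusted p = 0.0156) and is described with the interaction. The 4 members that fell were Krt23, by 0.38 on the log2 scale (SE 0.07, adjusted p = 0.00655), Krt1, Krt10 and Krt77.

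Krt42, Krt16, Krt75, Krt90 and Krt1 kept their calls in each of the 8 fits without 1 library. Krt10 lost its call without Lgr5+T8hi batch 1 (adjusted p = 0.0576), Krt23 without Lgr5+T8hi batch 2 (0.0532), and Krt17 without Lgr5+T8hi batch 1 (0.0864) or Lgr5-T8hi batch 1 (0.141). Krt18 lost it without Lgr5+T8hi batch 2 (0.0725), Lgr5-T8hi batch 1 (0.0588) or Lgr5-T8- batch 1 (0.0938), Krt73 without Lgr5+T8hi batch 1 (0.0839), Lgr5+T8- batch 2 (0.0915) or Lgr5-T8- batch 2 (0.0626), and Krt77 without batch 1 of Lgr5+T8hi (0.0883), Lgr5-T8hi (0.18) or Lgr5+T8- (0.107). Krt8 failed without any T8hi library or Lgr5+T8- batch 1 (adjusted p = 0.0964 to 0.161), Krt19 without Lgr5+T8hi batch 2, Lgr5-T8hi batch 1, Lgr5+T8- batch 1 or either Lgr5-T8- library (adjusted p = 0.0735 to 0.212), and Krt5 without any library but those of Lgr5-T8- (adjusted p = 0.102 to 0.346). Without the batch block, Krt42 (adjusted p = 0.0116) and Krt1 (0.0190) passed, while the other 12 lay between 0.0523 for Krt90 and 0.752 for Krt73.

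Lgr5 itself stood at 174 and 193 CPM in Lgr5+T8hi against 119 and 129 in Lgr5-T8hi cells. The gap was wider in T8- cells, at 185 and 212 CPM in Lgr5+T8- against 58.3 and 50.5 in Lgr5-T8- cells. Split by T8, the Lgr5 comparison called far more keratins in T8- than in T8hi cells, and the part of that wider gap in the calls was not tested. In T8hi cells 1 of 35 was higher (all genes, 2.29%) and 0 lower (all genes, 1.05%), or 2.86% in either direction against 3.34% of all genes, while without adjustment 7 rises and 1 fall had p under 0.05 in edgeR. At an adjusted p under 0.05, DESeq2 and limma-voom each called 2 higher and 0 lower. The single edgeR call was Krt42, at 0.55 ± 0.10 (adjusted p = 0.0107), and it was lost without Lgr5+T8hi batch 1 (0.141), Lgr5+T8hi batch 2 (0.130) or Lgr5-T8hi batch 1 (0.284). In T8- cells 9 were higher (all genes, 3.81%) and 6 lower (all genes, 5.05%), or 42.9% in either direction against 8.86% of all genes. Krt42 rose there by 1.18 ± 0.10 (adjusted p = 2.59e-05), Krt90 by 1.31 ± 0.23 (adjusted p = 0.00356), Krt75 by 1.04 ± 0.21 (adjusted p = 0.00947), Krt16 by 0.78 ± 0.11 (adjusted p = 7.26e-04) and Krt17 by 0.59 ± 0.11 (adjusted p = 0.00419). Whether the Lgr5 effects differ between T8hi and T8- cells is what the interaction tests, and of these 5 genes Krt42 alone passed it. The others called in T8- cells were Krt18, at 0.73 ± 0.14 (adjusted p = 0.00756), Krt19, at 0.50 ± 0.14 (adjusted p = 0.0482), Krt8, at 0.41 ± 0.10 (adjusted p = 0.0312), and Krt23, at -0.47 ± 0.11 (adjusted p = 0.0154), with Krt1, Krt10, Krt2, Krt77, Krt20 and Krt73 below. Krt10, Krt16, Krt17, Krt1, Krt42, Krt73 and Krt90 kept this call in each of the 8 fits without 1 library. Krt75 lost it without either Lgr5+T8- library or Lgr5-T8- batch 1 (adjusted p = 0.0526 to 0.0973), Krt18 without batch 1 of Lgr5+T8- (0.0865) or Lgr5-T8- (0.164), and Krt23 without either Lgr5+T8- library or Lgr5-T8- batch 2 (0.0556 to 0.113). Krt19 lost it in 5 of these fits (0.0684 to 0.523), with RLE scaling (0.066), a filter of 1 CPM in 4 libraries (0.0707) and limma-voom (0.0512), and Krt8 in 7 (0.0546 to 0.292), passing only without Lgr5-T8- batch 2. Without the batch block Krt42 (adjusted p = 0.0145), Krt1 (0.00558) and Krt10 (0.05) passed in T8- cells, and Krt42 did not in T8hi cells (0.306).

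**Figure D4:**
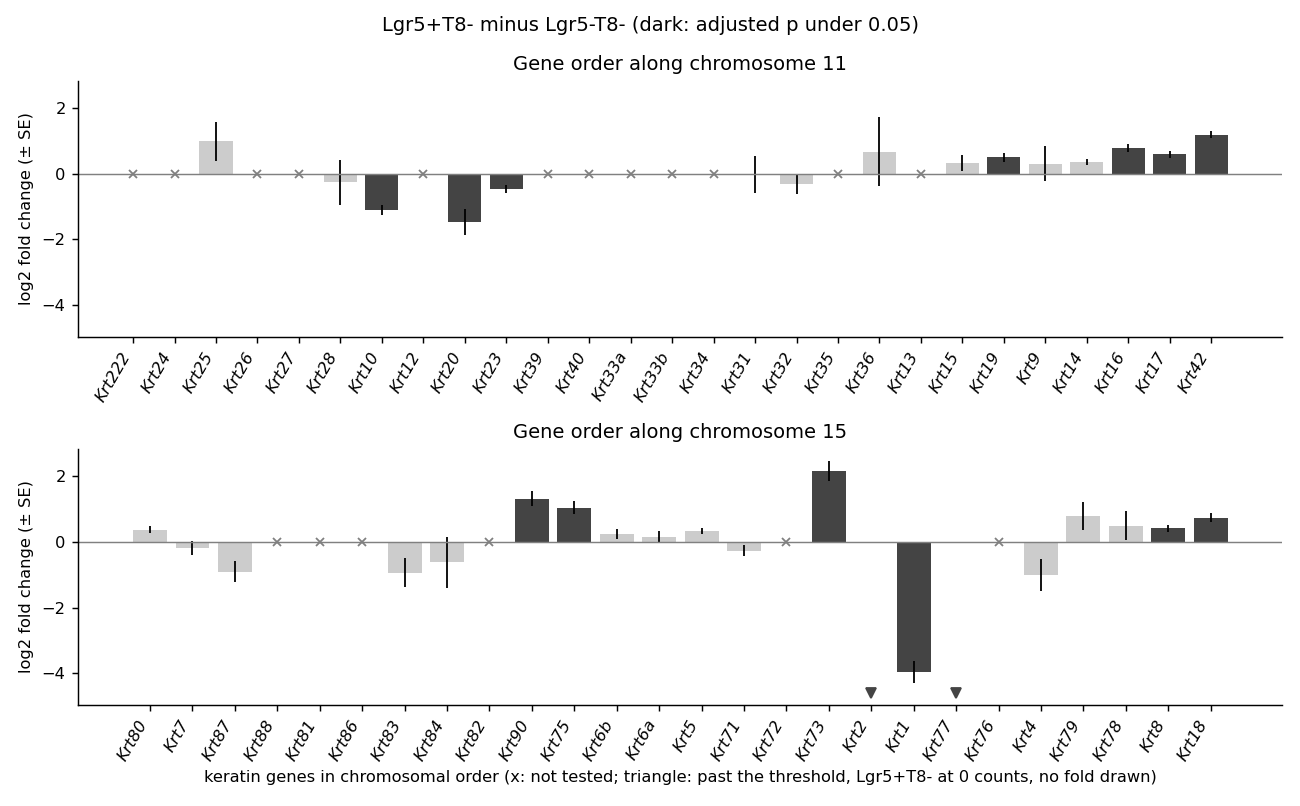
Log2 fold change of Lgr5+T8- minus Lgr5-T8- cells (bars, with standard errors) for the keratins in their order along chromosome 11 (top) and chromosome 15 (bottom); dark bars passed an adjusted p of 0.05, crosses were not tested, and triangles mark Krt2 and Krt77, which passed with 0 counts in Lgr5+T8- cells. Krt16, Krt17 and Krt42 stand side by side as rises, Krt90 and Krt75 likewise, and Krt2, Krt1 and Krt77 stand side by side as falls.

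The interaction, the T8 effect in Lgr5+ cells minus that in Lgr5- cells, was past the threshold for 5 keratins, 3 positive (all genes, 2.18%) and 2 negative (all genes, 0.363%), or 14.3% in either direction against 2.55% of all genes. The positive ones, Krt1, Krt10 and Krt2, are keratins of the suprabasal epidermis, and each was highest in Lgr5-T8- cells. Krt2, counted in these shares, would not have passed the filter on low counts without its Lgr5-T8- libraries, so its call is no separate support. Krt1, the type II keratin that keratinocytes start to make on leaving the basal layer, stood at 0.634 and 0.567 CPM in Lgr5+T8hi cells, 0.467 and 0.479 in Lgr5-T8hi and 0.315 and 0.399 in Lgr5+T8- cells, against 6.85 and 4.19 in Lgr5-T8- cells (Entrez 16678, chromosome 15, 101845426 to 101850786). Both Lgr5-T8- libraries lay far above the other 6. The interaction was 4.28 ± 0.52 (log2, SE, adjusted p = 0.00183). Krt1 fell by 3.51 on the log2 scale in Lgr5-T8hi against Lgr5-T8- cells (SE 0.30, adjusted p = 3.37e-05) and by 3.95 in Lgr5+T8- against Lgr5-T8- cells (SE 0.33, adjusted p = 2.49e-05). The differences were 0.76 ± 0.42 between Lgr5+T8hi and Lgr5+T8- cells (adjusted p = 0.341) and 0.33 ± 0.38 between Lgr5+T8hi and Lgr5-T8hi cells (adjusted p = 0.823).

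Krt10, the type I partner of Krt1, stood at 5.33 and 5.26 CPM in Lgr5+T8hi cells, 5.77 and 5.73 in Lgr5-T8hi and 5.73 and 4.46 in Lgr5+T8- cells, against 11.9 and 10.0 in Lgr5-T8- cells. Its interaction was 0.98 ± 0.23 (adjusted p = 0.0416), and it fell in Lgr5-T8hi against Lgr5-T8- cells by 0.93 on the log2 scale (SE 0.15, adjusted p = 0.00275) and in Lgr5+T8- against Lgr5-T8- cells by 1.11 (SE 0.16, adjusted p = 0.00102). Averaged over the other marker, Krt1 was lower in T8hi cells by -1.37 ± 0.27 (adjusted p = 0.00499) and in Lgr5+ cells by -1.81 ± 0.26 (adjusted p = 9.18e-04), and Krt10 by -0.44 ± 0.11 (adjusted p = 0.0213) and -0.61 ± 0.11 (adjusted p = 0.00477). For both genes it was the 2 Lgr5-T8- libraries that stood apart.

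**Figure D5:**
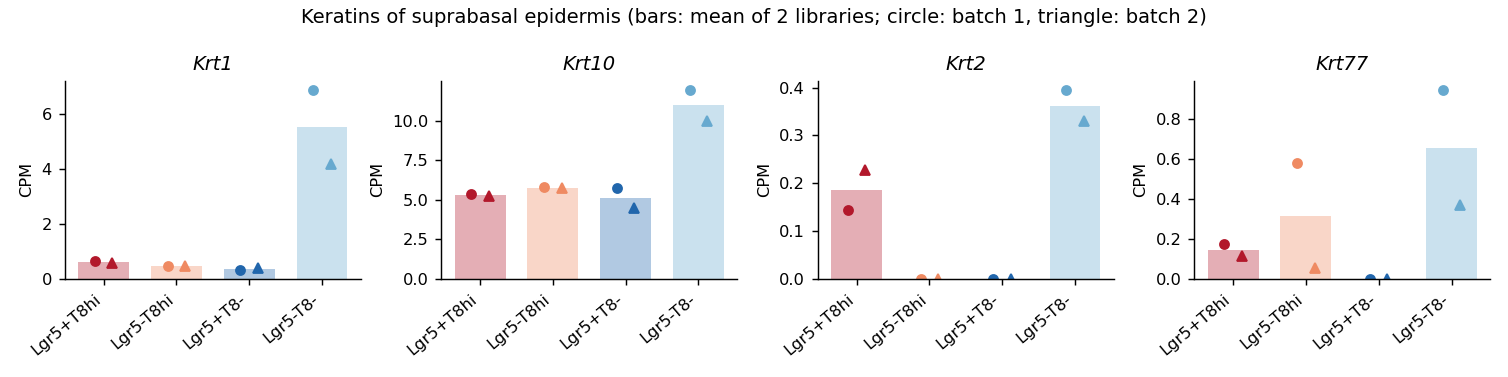
Level in CPM (linear axis from 0) of Krt1, Krt10, Krt2 and Krt77 in the 4 populations; bars are means of 2 libraries, circles batch 1 and triangles batch 2. The Lgr5-T8- bar is the tallest in every panel, but for Krt2 and Krt77 all levels are below 1 CPM, and for Krt77 the batch 2 library of Lgr5-T8- (0.368 CPM) lies below the batch 1 library of Lgr5-T8hi (0.577 CPM).

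The other members of this epidermal group were near the limit of detection. Krt2 and Krt77 would not have passed the filter on low counts without their Lgr5-T8- libraries, so their calls are no separate support for a high level there. Krt2, a type II keratin of the upper epidermis, had 0.144 and 0.227 CPM in Lgr5+T8hi, 0 in both Lgr5-T8hi and both Lgr5+T8- libraries, and 0.394 and 0.331 in Lgr5-T8- cells. Its interaction passed (adjusted p = 0.0179), and it was at least 4.47-fold lower in Lgr5-T8hi and at least 3.39-fold lower in Lgr5+T8- than in Lgr5-T8- cells, taking a count of 0 as 3 counts per library. Krt77, of the sweat duct and suprabasal skin, had 0.173 and 0.113 CPM in Lgr5+T8hi cells, 0.577 and 0.0533 in Lgr5-T8hi and 0 in both Lgr5+T8- libraries, against 0.940 and 0.368 in Lgr5-T8- cells. It was at least 6.11-fold lower in Lgr5+T8- than in Lgr5-T8- cells (adjusted p = 0.00479) and was called lower in Lgr5+ cells (adjusted p = 0.00692). The interaction of Krt77 did not pass (adjusted p = 0.122), nor did its T8 difference in Lgr5- cells, at -1.16 ± 0.56 (adjusted p = 0.295). In T8- cells the Lgr5 call of Krt77 was lost without Lgr5+T8- batch 1 (0.158), and that of Krt2 (adjusted p = 0.0185) without either Lgr5+T8- library or Lgr5-T8- batch 1 (0.0858 to 0.124). The T8 call of Krt2 in Lgr5- cells (adjusted p = 0.0129) was lost without either Lgr5-T8hi library or Lgr5-T8- batch 1 (0.0726 to 0.0954). Krt2, Krt1 and Krt77 follow each other on chromosome 15, and Krt28 and Krt10 on chromosome 11.

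The promoters of Krt10, Krt2 and Krt77 are shown because the means of these genes were highest in the same population as that of Krt1, for which no window was used here. Each is the 250 bases before a start of transcription in RefSeq (GRCm38.p6), read 5′ to 3′ on the coding strand, which is the minus strand of chr11:99389365-99389614 for Krt10, of chr15:101818170-101818419 for Krt2 and of chr15:101869706-101869955 for Krt77. The windows of Krt10 and Krt2 lie within the bounds of their genes, which extend to 99397449 and 101818956. Capitals mark matches on either strand to the TATA box (TATAAA), the AP-1 site (TGANTCA), the GC box (GGGCGG) or the CCAAT box (CCAAT), none of which overlap here.
Krt10: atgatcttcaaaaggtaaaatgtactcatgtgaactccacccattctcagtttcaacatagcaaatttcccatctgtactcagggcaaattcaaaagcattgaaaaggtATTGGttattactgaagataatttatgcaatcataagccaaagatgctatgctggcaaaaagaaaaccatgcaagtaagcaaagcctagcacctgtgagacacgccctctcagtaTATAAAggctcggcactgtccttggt
Krt2: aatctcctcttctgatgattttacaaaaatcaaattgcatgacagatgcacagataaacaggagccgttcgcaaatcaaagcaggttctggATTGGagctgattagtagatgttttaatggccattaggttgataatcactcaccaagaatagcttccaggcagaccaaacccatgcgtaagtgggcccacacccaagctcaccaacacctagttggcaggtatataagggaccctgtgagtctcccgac
Krt77: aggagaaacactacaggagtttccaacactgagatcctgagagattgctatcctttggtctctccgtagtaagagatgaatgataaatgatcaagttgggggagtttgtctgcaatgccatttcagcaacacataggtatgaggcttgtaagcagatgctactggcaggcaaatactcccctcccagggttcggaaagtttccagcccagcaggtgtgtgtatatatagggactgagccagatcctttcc
Krt10 held a TATA box that starts 26 bases before that start of transcription and a CCAAT box on the other strand, Krt2 a CCAAT box alone, and Krt77 had none of the 4 motifs in these letters. Variants of these letters were not searched for. In 37 windows of 36 keratins, the TATA box letters were found in 45.9%, against 12.4% of all 32851 promoter windows, and the GC box in 5.41%, against 32.7%. The CCAAT box was found in 40.5% and 33.8%, and the AP-1 site in 5.41% and 6.75%. The neighbours Krt8 and Krt18, which pair in luminal cells and are read on the minus strand of chr15:102004343-102004592 and the plus strand of chr15:102027966-102028215, are shown beside them, and neither window held any of the 4 motifs.
Krt8: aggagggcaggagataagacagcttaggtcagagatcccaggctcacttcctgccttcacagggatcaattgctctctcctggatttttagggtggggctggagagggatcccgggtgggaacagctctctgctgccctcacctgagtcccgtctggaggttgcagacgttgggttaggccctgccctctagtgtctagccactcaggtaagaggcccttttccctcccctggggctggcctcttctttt
Krt18: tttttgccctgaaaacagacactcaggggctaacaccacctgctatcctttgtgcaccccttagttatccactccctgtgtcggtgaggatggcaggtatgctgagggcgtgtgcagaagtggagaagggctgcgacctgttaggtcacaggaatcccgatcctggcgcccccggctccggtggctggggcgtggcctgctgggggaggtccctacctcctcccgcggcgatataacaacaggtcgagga
The ratio of Krt18 to Krt8 was lowest in the Lgr5-T8- library of each batch. Per length, Krt18 was 0.707 and 0.703 of Krt8 in Lgr5+T8hi and 0.716 and 0.650 in Lgr5-T8hi, against 0.724 and 0.526 in Lgr5+T8- and 0.529 and 0.466 in Lgr5-T8- cells.

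Markers of the cornified envelope, the shell of dead keratinocytes, had their lowest summed level in the population where Krt1 and Krt10 were highest, but 2 genes, Lypd3 and Tgm1, made up most of that sum. Summed over 22 genes they were at 509 and 320 CPM in Lgr5+T8hi cells, 442 and 297 in Lgr5-T8hi and 398 and 286 in Lgr5+T8-, against 264 and 183 in Lgr5-T8- cells. Of 11 tested, 4 rose and 0 fell with T8, 3 rose and 2 fell with Lgr5, and 1 interaction passed in each direction. Sbsn, Lypd3 and Tgm1 had the lowest adjusted p with T8, at 1.18 ± 0.11 (adjusted p = 3.42e-05), 0.58 ± 0.07 (adjusted p = 1.40e-04) and 0.34 ± 0.06 (adjusted p = 0.00296), and Lypd3 also rose with Lgr5, by 0.50 ± 0.07 (adjusted p = 6.41e-04), with an interaction of -0.58 ± 0.14 (adjusted p = 0.0468). Flg, Flg2, Sprr3 and Lce3a had 0 counts in all 8 libraries. Lor, the main envelope protein of skin, stood at 1.21 and 1.25 CPM in Lgr5-T8- and 1.15 and 1.09 in Lgr5-T8hi cells. Its levels were 0.836 and 0.718 CPM in Lgr5+T8hi and 0.535 and 0.438 in Lgr5+T8- cells. Lor fell with Lgr5 by 0.92 on the log2 scale (SE 0.24, adjusted p = 0.0289) and did not pass the T8 test (adjusted p = 0.517). Tgm3, a transglutaminase of the upper epidermis and hair, was highest in the same population as Krt1, at 0.0865 and 0.0378 CPM in Lgr5+T8hi cells, 0.165 and 0.160 in Lgr5-T8hi and 0.0315 and 0.0797 in Lgr5+T8-, against 0.970 and 0.956 in Lgr5-T8- cells. It fell with Lgr5 by 2.68 on the log2 scale (SE 0.52, adjusted p = 0.00663), and its interaction of 2.82 ± 1.21 did not pass (adjusted p = 0.375). Dsg1a, a desmosomal cadherin of suprabasal epidermis, was highest there too, with 0.173 and 0.0756 CPM in Lgr5+T8hi cells, 0.220 and 0.133 in Lgr5-T8hi and 0.567 and 0.598 in Lgr5+T8-, against 1.70 and 1.76 in Lgr5-T8- cells. Unlike Krt1 it was higher in Lgr5+T8- than in either T8hi population, and its interaction of 1.14 ± 0.78 did not pass (adjusted p = 0.672). Of the marker lists of other cells, 3 of 12 fibroblast, 2 of 12 endothelial and 5 of 12 immune genes had a positive interaction and 0 a negative one, with endothelial sums of 682 and 774 CPM in Lgr5+T8hi cells, 229 and 434 in Lgr5-T8hi, 223 and 167 in Lgr5+T8- and 291 and 310 in Lgr5-T8- cells. The part of skin cells or other cells in the keratin values was not tested.

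The 2 negative interactions were those of Krt42 and Krt73. The interaction of Krt42 was -0.62 ± 0.14 (adjusted p = 0.0363), the Lgr5 difference being 0.55 in T8hi and 1.18 in T8- cells. Krt73 stood at 1.73 and 4.65 CPM in Lgr5+T8hi cells, 1.40 and 6.63 in Lgr5-T8hi, 2.08 and 12.4 in Lgr5+T8- and 0.818 and 1.98 in Lgr5-T8- cells. Batch 2 was higher in every population, by 1.96 ± 0.22 (log2, SE, adjusted p = 1.58e-04). The interaction was -2.32 ± 0.43 (adjusted p = 0.0198), with -0.96 in batch 1 and -3.09 in batch 2. In Lgr5- cells Krt73 rose with T8 by 1.37 ± 0.32 (adjusted p = 0.0261), and in T8- cells it rose with Lgr5 by 2.15 ± 0.31 (adjusted p = 0.00172).

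Among the interactions, the call of Krt1 held in each of the 8 fits without 1 library. Krt10 lost it in 7, passing only without Lgr5-T8- batch 2 (adjusted p = 0.0533 to 0.247), and also with DESeq2 (0.0541), and Krt42 in 7, passing only without Lgr5-T8- batch 1 (0.0539 to 0.242), and also with RLE scaling (0.0524) and with a filter of 1 CPM in 4 libraries (0.0557). Krt73 lost it without the batch 2 library of Lgr5+T8hi (0.167), Lgr5-T8hi (0.0551), Lgr5+T8- (0.0964) or Lgr5-T8- (0.0675), and Krt2 without Lgr5+T8hi batch 1 (0.0860), Lgr5+T8hi batch 2 (0.119) or Lgr5+T8- batch 2 (0.0513). Without the batch block none of the 5 passed (adjusted p = 0.0779 for Krt1 to 1 for Krt73).

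The T8 comparison within each Lgr5 class named few further genes. In Lgr5+ cells 3 of 35 keratins were higher (all genes, 7.27%) and 1 lower (all genes, 2.17%), or 11.4% in either direction against 9.44% of all genes. Krt7 rose there by 1.16 ± 0.22 (adjusted p = 0.0152), Krt19 by 0.70 ± 0.13 (adjusted p = 0.00850) and Krt4 by 1.64 ± 0.46 (adjusted p = 0.0430), while Krt17 fell by 0.38 on the log2 scale (SE 0.11, adjusted p = 0.0451), a call lost with RLE scaling (0.0522), a filter of 1 CPM in 4 libraries (0.0601) and without any library but those of Lgr5-T8- (0.0957 to 0.492). In Lgr5- cells 5 were higher (all genes, 3.70%) and 5 lower (all genes, 3.36%), or 28.6% in either direction against 7.06% of all genes. Krt18 rose there by 0.87 ± 0.14 (adjusted p = 0.00295), Krt19 by 0.89 ± 0.14 (adjusted p = 0.00246), Krt16 by 0.59 ± 0.11 (adjusted p = 0.00450) and Krt8 by 0.42 ± 0.10 (adjusted p = 0.0309). Krt23 fell by 0.49 on the log2 scale (SE 0.10, adjusted p = 0.0131). Its call was lost without batch 1 or batch 2 of Lgr5-T8hi, where the log2 fold change was -0.47 and -0.49. Krt20 fell by 1.87 on the log2 scale (SE 0.38, adjusted p = 0.0130), and Lgr5+T8- cells were also lower in Krt20 than Lgr5-T8- cells, by -1.48 ± 0.39 (adjusted p = 0.0379). That call was lost without either Lgr5+T8hi library, Lgr5+T8- batch 2, where the log2 fold change was -0.82, or Lgr5-T8- batch 2 (adjusted p = 0.0819 to 0.202). Without 1 library, Krt7 in Lgr5+ cells lost its call in 3 fits (adjusted p = 0.079 to 0.116), Krt19 in 3 (0.057 to 0.124) and Krt4 in 6 (0.0565 to 0.339), the last also with DESeq2 (0.196). In Lgr5- cells Krt1 kept its call in all 8 fits, while Krt18 and Krt19 lost theirs without Lgr5-T8- batch 1 (0.0868 and 0.122), Krt16 without Lgr5-T8hi batch 2 (0.081), Krt10 without Lgr5-T8hi batch 1 (0.0959), Krt73 without batch 2 of Lgr5-T8hi (0.27) or Lgr5-T8- (0.224), Krt20 without Lgr5-T8hi batch 1 (0.176) or Lgr5-T8- batch 2 (0.0564), and Krt8 in 5 fits (0.0608 to 0.312). Without the batch block no call held in Lgr5+ cells (0.187 to 0.779), and in Lgr5- cells only that of Krt1 did (0.00814). Of the keratins named here, Krt7, Krt19, Krt4, Krt17, Krt18, Krt16, Krt8, Krt20 and Krt23 did not pass the interaction test, in which Krt7 had 0.87 ± 0.30 (adjusted p = 0.293) and Krt18 -0.50 ± 0.19 (adjusted p = 0.319).

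Keratins of hair and nail were low. All 16 had a mean of at most 1.18 CPM, although Krt32, Krt87 and Krt83 had at least 10 counts in all 8 libraries, and of the 6 tested none passed in either main comparison or the interaction by edgeR, while Krt31, Krt32, Krt36 and Krt83 each had an unadjusted p under 0.05 in 1 of them. Krt32, of the hair cuticle, stood at 0.836 and 0.832 CPM in Lgr5+T8hi cells, 1.21 and 1.04 in Lgr5-T8hi, 1.29 and 1.16 in Lgr5+T8- and 1.73 and 1.36 in Lgr5-T8- cells, so that its 2 Lgr5+T8hi libraries were the lowest and its 2 Lgr5-T8- libraries the highest. Krt87, a type II hair keratin, stood at 1.33 and 0.945 CPM in Lgr5+T8hi cells, 1.37 and 0.879 in Lgr5-T8hi, 0.913 and 0.558 in Lgr5+T8- and 1.55 and 1.21 in Lgr5-T8- cells. Neither passed the T8 test (adjusted p = 0.135 and 0.693) or the Lgr5 test (adjusted p = 0.312 and 0.255).

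Of the 7 inner root sheath keratins, Krt71 was the most abundant, with 4.50 and 5.67 CPM in Lgr5+T8hi cells, 4.92 and 6.12 in Lgr5-T8hi, 4.79 and 5.22 in Lgr5+T8- and 5.21 and 6.98 in Lgr5-T8- cells. It passed neither test (adjusted p = 0.781 for T8 and 0.366 for Lgr5). Markers of the hair follicle that are not keratins summed to 708 and 716 CPM in Lgr5+T8hi cells, 724 and 775 in Lgr5-T8hi, 773 and 824 in Lgr5+T8- and 679 and 730 in Lgr5-T8- cells, so the sums ran from 679 to 824 CPM. Lgals7, Gata3, Nfatc1 and Lgr6 made up most of each sum, which therefore does not show the lower genes of the list. Of the 16 markers tested, 1 rose and 4 fell with T8, and 2 rose and 2 fell with Lgr5. Dlx3, with the lowest adjusted p for T8, stood at 0.663 and 0.643 CPM in Lgr5+T8hi and 1.59 and 1.65 in Lgr5-T8hi cells. Its levels were 2.87 and 2.87 CPM in Lgr5+T8- and 5.79 and 4.78 in Lgr5-T8- cells. It fell with T8 by 1.91 on the log2 scale (SE 0.17, adjusted p = 1.61e-05) and with Lgr5 by 1.10 (SE 0.17, adjusted p = 0.00147).

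The remaining members above 1 CPM did not pass a main test. Krt80, a type II keratin of many epithelia, stood at 24.5 and 18.1 CPM in Lgr5+T8hi cells, 25 and 14.9 in Lgr5-T8hi, 32.2 and 21 in Lgr5+T8- and 25.3 and 16.1 in Lgr5-T8- cells (adjusted p = 0.137 for T8 and 0.0759 for Lgr5). Krt78, a type II keratin of stratified epithelia, stood at 2.25 and 1.66 CPM in Lgr5+T8hi cells, 1.78 and 0.746 in Lgr5-T8hi, 1.39 and 0.598 in Lgr5+T8- and 1.27 and 0.184 in Lgr5-T8- cells (adjusted p = 0.0541 for T8 and 0.263 for Lgr5). The 18 members that the filter removed had a mean of at most 0.238 CPM and no more than 13 counts in any library.

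Over the 24 members with at least 1 CPM, the highest population mean was in Lgr5+T8hi cells for 9, in Lgr5+T8- for 8, in Lgr5-T8- for 7 and in Lgr5-T8hi for 0. The lowest was in Lgr5-T8- cells for 14. Both Lgr5-T8- libraries lay above all others for Krt1, Krt10, Krt20 and Krt32 and below all others for Krt5, Krt16, Krt42 and Krt75. Both Lgr5+T8- libraries lay above all others for Krt17, Krt5, Krt42 and Krt90.

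Lists of genes that work with keratins are given by their counts and medians, set against a median log2 fold change over all genes of -0.02 with T8 and 0.01 with Lgr5. The list medians were 0.02 and 0.17 for other intermediate filaments, -0.15 and 0.06 for desmosomes, -0.11 and 0.03 for hemidesmosomes, 0.07 and -0.05 for regulators and -0.08 and 0.01 for keratin binding and turnover, with T8 and with Lgr5 in that order. Of 15 other intermediate filament genes tested, 2 rose and 1 fell with T8, and 1 rose and 3 fell with Lgr5. Vim, the filament of mesenchymal and many basal cells, stood at 994 and 724 CPM in Lgr5+T8hi and 632 and 464 in Lgr5-T8hi, against 721 and 485 in Lgr5+T8- and 367 and 342 in Lgr5-T8- cells, and rose with T8 by 0.56 ± 0.08 (adjusted p = 6.70e-04) and with Lgr5 by 0.69 ± 0.08 (adjusted p = 2.43e-04). Synm, synemin of muscle and myoepithelium, stood at 88.7 and 79.4 CPM in Lgr5+T8hi and 111 and 74.7 in Lgr5-T8hi, against 164 and 118 in Lgr5+T8- and 230 and 209 in Lgr5-T8- cells, and fell with T8 by 1.00 on the log2 scale (SE 0.08, adjusted p = 1.17e-05). Des, desmin, rose with T8 by 0.91 ± 0.10 (adjusted p = 7.25e-05) but fell with Lgr5 by 0.36 on the log2 scale (SE 0.10, adjusted p = 0.0386). Synm also fell with Lgr5, by 0.39 (SE 0.08, adjusted p = 0.0106).

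Of 16 desmosome genes tested, 2 rose and 3 fell with T8, among them Ppl, periplakin, at 0.60 ± 0.08 (adjusted p = 2.84e-04), Pkp2, plakophilin, at 1.24 ± 0.20 (adjusted p = 0.00127), and Dsg1a at -2.70 ± 0.35 (adjusted p = 2.54e-04). With Lgr5, 1 rose and 0 fell, which was Ppl at 0.36 ± 0.08 (adjusted p = 0.0125). Of 9 genes of the hemidesmosome, which ties keratins to the basement membrane, 0 rose and 4 fell with T8, among them Lamb3 at -0.34 ± 0.07 (adjusted p = 0.00433) and Itga6 at -0.32 ± 0.08 (adjusted p = 0.0148). With Lgr5, Cd151 rose by 0.28 ± 0.06 (adjusted p = 0.0164) and Col17a1 by 0.27 ± 0.07 (adjusted p = 0.0291), while Itga6 fell by 0.37 on the log2 scale (SE 0.08, adjusted p = 0.0112).

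Of 22 tested regulators of keratin genes and epithelial fate, 7 rose and 2 fell with T8. Ehf, Foxa1 and Elf5, transcription factors of luminal and secretory epithelium, rose by 1.69 ± 0.12 (adjusted p = 3.22e-06), 1.59 ± 0.12 (adjusted p = 6.14e-06) and 2.30 ± 0.18 (adjusted p = 8.56e-06). Foxa1 and Elf5 also stand in the list of luminal markers. The 2 regulators that fell with T8 were Trp63, at -0.41 ± 0.07 (adjusted p = 0.00139), and Vdr, at -0.29 ± 0.08 (adjusted p = 0.0244). With Lgr5, 3 rose and 5 fell, and those with the lowest adjusted p were Rara, a retinoic acid receptor, at 0.58 ± 0.07 (adjusted p = 2.06e-04), Grhl1, a grainyhead factor of epidermal differentiation, at -0.69 ± 0.11 (adjusted p = 0.00128), and Sox9 at 0.33 ± 0.06 (adjusted p = 0.00655). Foxa1 rose with Lgr5 as well, by 0.57 ± 0.12 (adjusted p = 0.0108). Ehf and Elf5 went the other way, at -0.50 ± 0.12 (adjusted p = 0.02) and -0.76 ± 0.19 (adjusted p = 0.025). Of 12 genes for keratin binding and turnover, 0 rose and 1 fell with T8, which was Trim29 at -0.32 ± 0.07 (adjusted p = 0.00610), and 1 rose and 0 fell with Lgr5, which was Sfn at 0.26 ± 0.07 (adjusted p = 0.0479).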

How the data were processed

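RNA of 8 libraries, 2 from each of 4 sorted populations, was sequenced with single-end reads. The deposited files hold raw read counts per Entrez gene with gene lengths. Per the submitters' processing notes, the build was mm10 (GRCm38) and the tools named are featureCounts, CASAVA 1.8.2, limma 3.24.14 and edgeR 3.10.2. The aligner and the strand setting of the counting are not given in the sources used here.

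Symbols and coordinates were taken from RefSeq (GRCm38.p6) by Entrez ID, which matched 25260 genes. The members and gene lists were chosen with earlier results of these data known. Counts were fitted for all genes with edgeR 4.0.16 (R 4.3.3; TMM, filterByExpr with a minimum count of 10, quasi-likelihood F-test, population and batch as terms), which left 3 residual degrees of freedom and 16526 genes. Adjusted p-values are Benjamini-Hochberg values with a threshold of 0.05, and a standard error is the log2 fold change divided by the square root of F. CPM were computed with TMM-scaled totals, and RPKM by dividing by gene length. Within-batch fold changes used a prior of 0.1 CPM. Promoter windows and coding sequences were searched with Python 3.11.15 and Biopython 1.88. The scripts were checked on simulated counts.

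Batch was a block because the labels state a batch that is balanced over the populations and equals the replicate number. Deviations from the group means of same-numbered libraries correlated at 0.433 to 0.570 over 6 pairs of populations. Replicate libraries differed by more than sampling noise (chi-square per degree of freedom 36 to 57.3), and each counted once. The 2 libraries compared come from different batches, so this value includes the batch difference and cannot show that they are separate animals. Alternatives were no batch block, RLE scaling, no filter, a filter of 1 CPM in 4 libraries, DESeq2 1.42.0, limma-voom (limma 3.58.1) and leaving out each library. Limma-voom without the block was chosen after seeing the data. Keratins with a mean of at least 1 CPM are given in every library, and every keratin past the threshold in the Tspan8 effect, the Lgr5 effect or the interaction with its fold change, except Krt2 and Krt77, for which populations at 0 counts leave only bounds. From other lists, those with the 3 lowest adjusted p-values past the threshold are named, except 1 result that is not reported here. Lor and the cornified genes at 0 were named after their values were seen.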

Additional observations from a re-analysis of the deposited data

Results flagged for a closer look

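For 5 keratins the Tspan8 effect differed between Lgr5+ and Lgr5- cells by the interaction test itself (edgeR, adjusted over all genes). Krt1 had an interaction of 4.28 ± 0.52 (log2, SE, adjusted p = 0.00183), with the same sign in both batches (4.44 and 3.31). Krt10 had 0.98 ± 0.23 (adjusted p = 0.0416; 0.94 and 1.03 by batch). Krt2 passed with 0 counts in both Lgr5-T8hi and both Lgr5+T8- libraries, so no fold is given (adjusted p = 0.0179). It would not have passed the filter on low counts without its Lgr5-T8- libraries. Krt42 had -0.62 ± 0.14 (adjusted p = 0.0363; -0.44 and -0.81 by batch). Krt73 had -2.32 ± 0.43 (adjusted p = 0.0198; -0.96 and -3.09 by batch), and its batch difference of 1.96 was the largest rise in batch 2 among the 4 keratins higher there.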

How the results depend on the processing

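None of the 61 calls of a keratin changed direction under the alternatives run, and RLE scaling kept 58 of them, limma-voom 60, no filter 60 and DESeq2 56. Without the replicate block 7 were kept, and the counts (higher and lower) became 0 and 1 for the T8 effect, 1 and 1 for the Lgr5 effect, 0 and 0 for the interaction, 0 and 0 for T8 in Lgr5+, 0 and 1 for T8 in Lgr5-, 0 higher for Lgr5 in T8hi and 1 and 2 for Lgr5 in T8- cells. With limma-voom and no replicate block they were 0 and 0, 1 and 0, 0 and 0, 1 and 0, 0 and 2, 0 higher, and 1 and 3 in the same order. DESeq2 gave 3 lower for T8 and 2 higher for Lgr5 in T8hi. A filter of 1 CPM in 4 libraries, which leaves low genes untested, gave 2 lower for Lgr5, 1 and 1 for the interaction, 0 lower for T8 in Lgr5+, 3 lower for T8 in Lgr5- and 3 lower for Lgr5 in T8-. RLE gave 1 lower for the interaction and 0 lower for T8 in Lgr5+, no filter 2 lower for T8 in Lgr5+, and limma-voom 2 lower for T8 in Lgr5+ and 2 higher for Lgr5 in T8hi. Leaving out 1 library gave 3 to 6 higher and 2 to 5 lower for T8, 5 to 9 and 2 to 5 for Lgr5, 1 to 4 and 0 to 2 for the interaction, 0 to 3 and 0 to 4 for T8 in Lgr5+, 2 to 5 and 1 to 5 for T8 in Lgr5-, 0 to 2 higher for Lgr5 in T8hi, and 5 to 10 and 3 to 6 for Lgr5 in T8-. A population left with 1 library was assumed to vary like the others. With unadjusted totals, 6 of 96 population levels moved by more than 1 SD. The cause of these changes was not tested beyond the alternatives' own construction. Levels per coding length from RefSeq proteins were not run. Depth limits the 29 members below 1 CPM, where 3 counts equal 0.0799 to 0.120 CPM.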
